A study of Rattus norvegicus with 12 samples.

Results

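In all, 10 genes of the epidermal growth factor (EGF) receptor system were followed in rat calvarial bone 24 h after surgery: the ligands Hbegf, Areg, Ereg, Btc, Tgfa and Egf, the receptors Egfr, Erbb2 and Erbb3, and the receptor inhibitor Errfi1. They were chosen by gene name, as every probe that the array files label with one of these 10 symbols, which gave 17 probes. Of these, 13 probes for 8 genes passed the filter on dim signals, against 16382 genes on the whole array, and Ereg and Btc did not pass it. The rats were 10 weeks old, with no genetic alteration or strain named in the labels, and each of 3 groups had 4 samples of bone, with 1 array each. In the bur group a rotating bur cut a defect of 8 by 3 mm at a feed speed of about 0.75 mm/s. In the laser group an Er:YAG laser, an infrared laser used to ablate bone, cut a defect of the same size in 3 strokes at 20 Hz, 127 mJ per pulse and about 2 mm/s. The periosteum was stripped in the controls but the bone was left uncut, so the control is itself a surgical wound. Nothing in the labels tells if these 4 were different rats, and p-values here measure the spread between these samples only.

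The ligands of this system are made as membrane proteins and are released by cleavage at the cell surface. Binding makes the receptors pair and phosphorylate each other, which passes a signal through Grb2, Ras and the ERK kinases to the nucleus. The signal induces its own inhibitors, and in bone the ligands and Egfr are known for regulating the growth and differentiation of osteoblast precursors.

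Values are background-corrected signals on the log2 scale after quantile normalization, so a difference of 1 is a factor of 2. A spot counts as above background where the scanner software says so. The background limit of an array is its lowest signal so counted. It was 2.02 to 3.09 on control, 2.19 to 2.75 on bur and 1.59 to 1.93 on laser arrays. Dim genes could therefore be counted at lower signals on laser arrays, and a probe reading above the limit was not always counted. The control and bur arrays lay in columns 1 and 2 of 1 slide, and the laser arrays on slide 2. Slide and laser treatment therefore cannot be told apart, nor can column and treatment between bur and control. Median processed signals were 16.5 to 43.2 on control, 18.6 to 28.3 on bur and 55.6 to 81.9 on laser arrays, and 57.2 to 64.4%, 57 to 59.9% and 67.5 to 72% of spots were above background. Arrays of a group correlated at 0.948 to 0.989. All 10 osteoblast and osteocyte markers were measured, and their summed signal was 16.38 to 17.33 in control, 16.94 to 17.58 in bur and 17.31 to 17.88 in laser bone. Controls 1 and 4 stood apart in 10 neural and glial genes, whose summed signal was 13.81 and 12.83 there against 8.00 to 10.67 on the other 10 arrays.

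Erbb3 differed most, with all bur arrays above every other array and laser and control overlapping. Against control, Hbegf, Erbb2 and Erbb3 rose and Areg fell in bur-drilled bone, and 4 of the 8 tested genes did not pass the test. In laser-ablated bone Tgfa and Erbb2 rose, Areg fell and 5 genes did not pass. Directly compared with bur, laser bone read higher for Tgfa and Egf and lower for Erbb3, and 5 genes did not pass. The Tgfa calls rest on its brighter probe, and the other kept probe gave -0.65 against control and -0.45 against bur, not called. Egf was above background only on the 4 laser arrays and bur 1, so it entered the test through the group in which it was high. Hbegf was above background on 0 control, 2 bur and 4 laser arrays, and so entered through the groups in which it was brighter. Its bur call was lost under 12 of 19 alternative settings. A gene was called where limma's moderated test gave a Benjamini-Hochberg adjusted p under 0.05 over all 16382 genes. Of all genes, 23.4% were called between bur and control (13.7% higher, 9.74% lower), 34.4% between laser and control (18.3% higher, 16.2% lower) and 25.8% between laser and bur (11.6% higher, 14.2% lower). The share of members called was 50%, 37.5% and 37.5% of 8 in these comparisons, so that each laser count, 3 genes, lay within 1 gene of the background share. The 50% counts Hbegf, and the last 37.5% counts Egf. The median difference of the 8 genes was 0.60, 0.49 and -0.10, beside 0.08, 0.01 and -0.06 over all genes. Bur and laser were compared with the same 4 control samples, so these comparisons are not independent of each other. In whole bone, fewer cells of a type and less RNA per cell cannot be told apart.

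**Figure D1:**
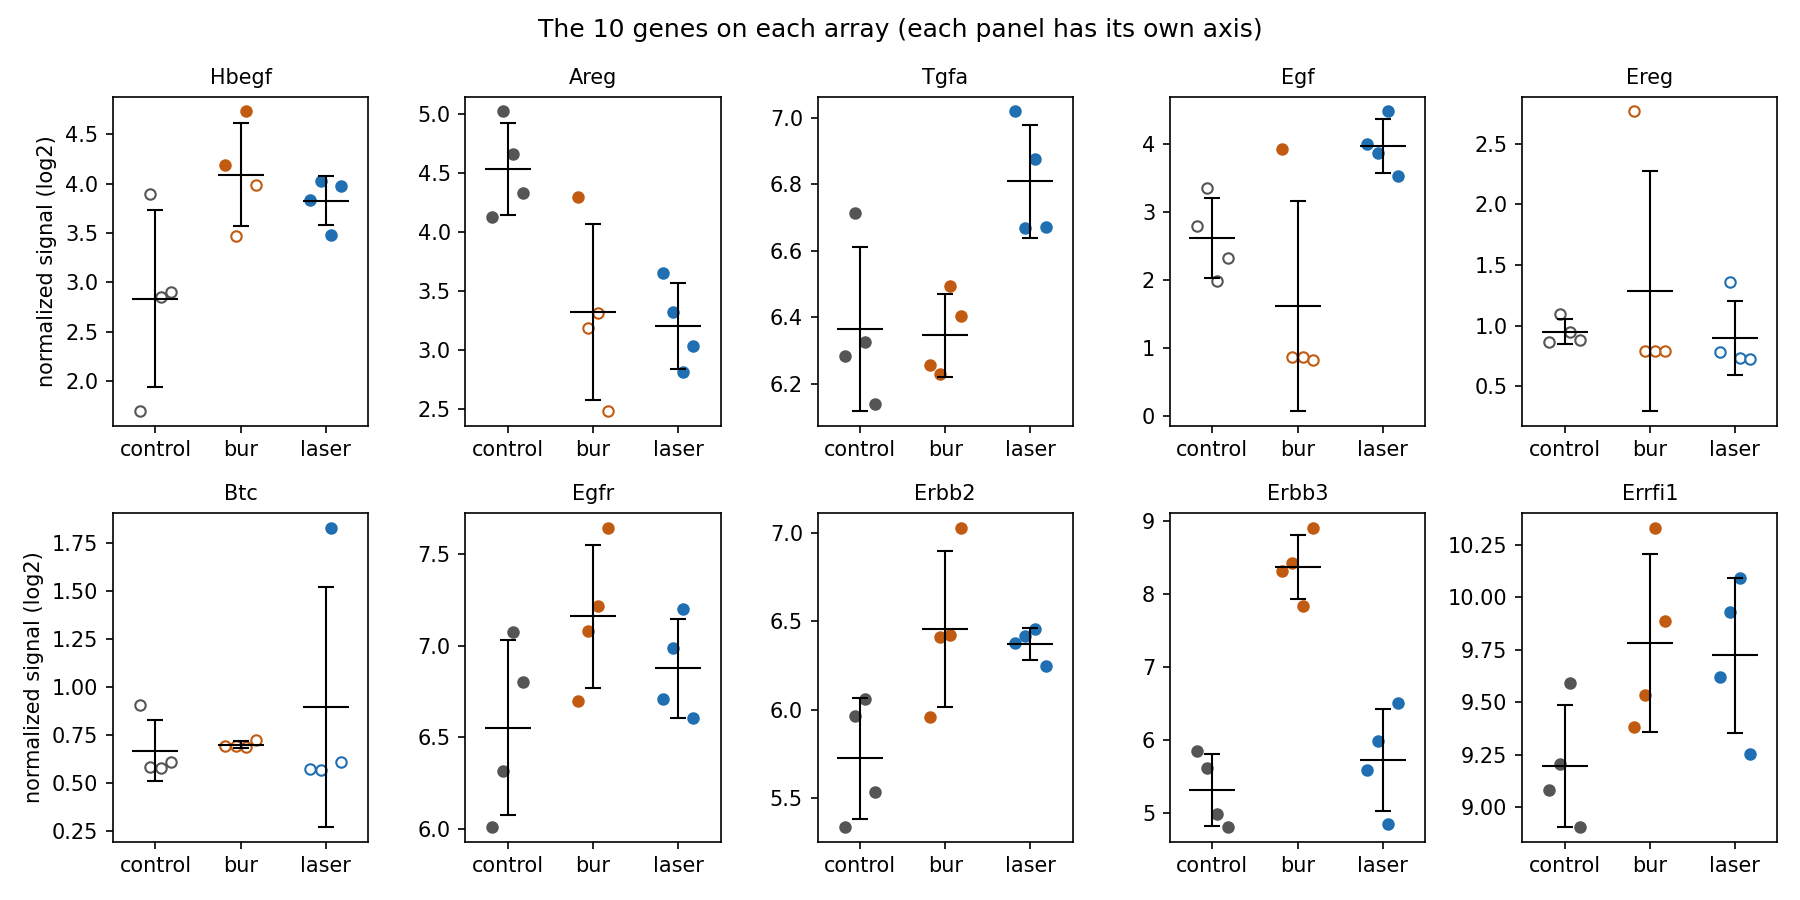
Normalized signal (log2) of the 10 genes on each of the 12 arrays, by group, with each gene's main probe and its own vertical axis. Filled points are above background and open points are not, the long bar is the mean and the whiskers are 1 SD (n = 4). The Erbb3 signals of the 4 bur arrays, 7.83 to 8.91, lie above those of all other arrays, while Ereg is above background on none.

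**Figure D2:**
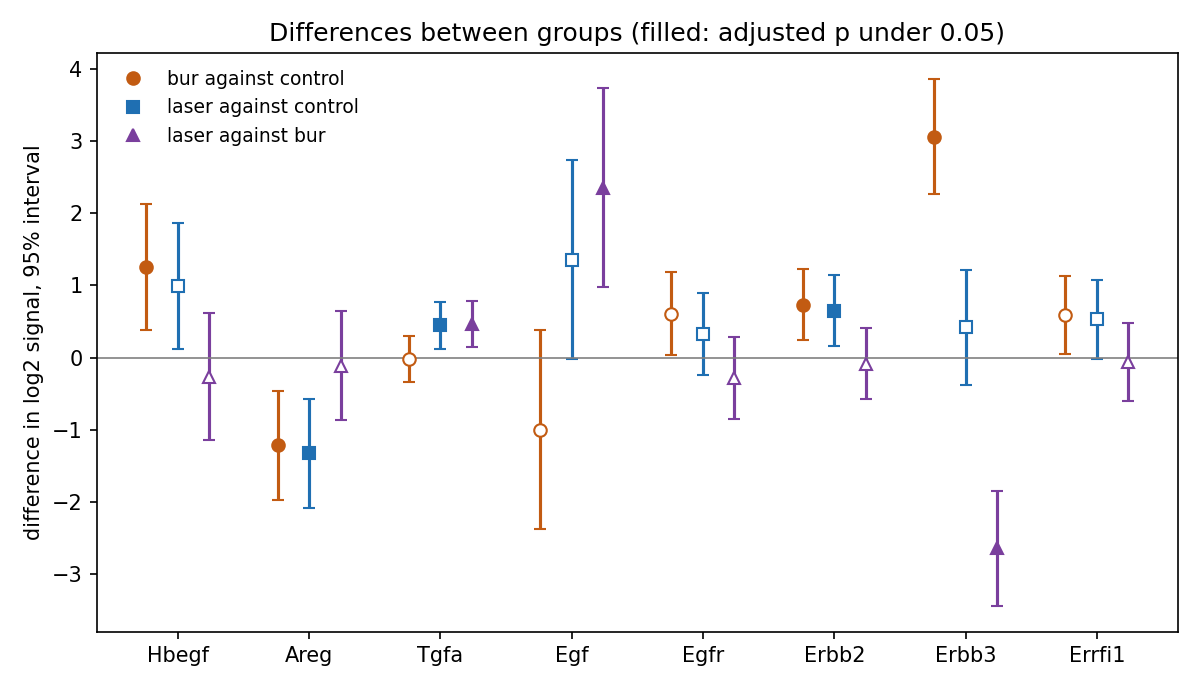
Difference in log2 signal between groups for the 8 tested genes, with its 95% interval from limma. Filled symbols passed the test. Erbb3 differs by 3.06 between bur and control and by 0.42 between laser and control, and Areg lies below 0 against control in both.

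Among the ligands, amphiregulin (Areg) was lower in both kinds of wound than in control bone. It binds Egfr, and in osteoblasts it is known as a target of parathyroid hormone. Its probe read 4.13, 5.02, 4.66 and 4.33 on control arrays 1 to 4. On the bur arrays it read 4.29, 3.18, 3.31 and 2.49, and on the laser arrays 3.65, 3.32, 2.81 and 3.04. All 4 laser arrays lay below all controls, whereas bur 1 lay above control 1. Only bur 1 of the bur arrays was above background, against 4 of 4 in each other group. Laser 3, at 2.81, counted as above background while bur 3, at 3.31, did not, so these counts do not rank the groups. Areg fell by 1.33 in laser bone (SE 0.34, adjusted p = 0.0125), which left 0.398 of the control signal (95% interval 0.236 to 0.673). In bur bone it fell by 1.21 (SE 0.34, adjusted p = 0.0262), to 0.431 of control (0.255 to 0.729). Laser and bur differed by -0.11, with an interval from -0.87 to 0.64. The laser call stood under all 19 alternative settings, with differences from -1.63 to -0.28. The bur call was lost under 7 of 19, among them without bur 2 (-1.17), bur 3 (-1.21), bur 4 (-0.94) or control 2 (-1.05), with adjusted p from 0.00294 to 0.145 over all settings. In the authors' deposited table the Areg differences were -0.28 for bur (adjusted p = 0.156) and -0.48 for laser (adjusted p = 0.0235). The probe is a 60-base oligonucleotide placed by the array design on the minus strand of rat chromosome 14, and its first 30 bases are shown to identify the transcript measured.

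Areg probe A_42_P791677, chr14:18466438-18466497 (rn4): aagtgacgaatcggtccttctttcagcgaa

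Heparin-binding EGF-like growth factor (Hbegf), a ligand that also binds heparan sulphate, read the other way. Control arrays 1 to 4 read 1.70, 3.89, 2.85 and 2.90, bur arrays 4.19, 3.47, 4.73 and 3.98, and laser arrays 3.84, 4.02, 3.47 and 3.98. No control array was above background, against bur 1 and bur 3 and all laser arrays, so the gene entered the test through the groups in which it was brighter. Control 2 lay above bur 2 and above laser 1 and laser 3, so the groups overlapped. Hbegf rose by 1.26 in bur bone (SE 0.40, adjusted p = 0.0421). The controls give only a limit, and bur 2 and bur 4 were not above background either, so no least fold is given for bur. The difference between laser and control was 0.99 (SE 0.40, adjusted p = 0.0753), at least 1.80-fold, and between laser and bur -0.26 (interval -1.14 to 0.61). The bur call was lost under 12 of 19 alternatives. Among them were the fits without bur 1 (1.22), bur 3 (1.04), bur 4 (1.29), control 1 (0.88), control 3 (1.26) or control 4 (1.28). The call was also lost with normexp background correction (0.15), 75th percentile scaling (0.86) and the authors' deposited values (0.33). It was lost as well with the replicate block or only the 2 groups compared (both 1.26), and without controls 1 and 4 together (0.72). The authors' deposited table gave 0.33 for bur (adjusted p = 0.0946).

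Transforming growth factor alpha (Tgfa) was the tested ligand with the narrowest spread within groups. Its brighter probe, above background on all 12 arrays, read 6.28, 6.71, 6.33 and 6.14 in control, 6.26, 6.23, 6.49 and 6.40 in bur and 7.02, 6.67, 6.88 and 6.67 in laser bone. The laser arrays lay above all bur arrays but overlapped the controls through control 2. Tgfa rose by 0.44 in laser against control (SE 0.15, adjusted p = 0.0365), or 1.36-fold, and by 0.46 against bur (SE 0.15, adjusted p = 0.0387), or 1.38-fold. Bur differed from control by -0.02, with an interval from -0.34 to 0.30. The dimmer kept probe went the other way in laser bone. It read 4.89, 3.46, 4.80 and 4.18 in control, 4.06, 3.56, 4.47 and 4.44 in bur and 3.65, 3.98, 3.74 and 3.36 in laser bone. Its differences were -0.65 for laser against control (SE 0.32, adjusted p = 0.133) and -0.45 for laser against bur (adjusted p = 0.320), so the direction for Tgfa in laser bone depends on the probe. The rise against control was lost without control 1 (0.42), control 3 (0.43), control 4 (0.37), laser 1 (0.37) or laser 3 (0.42), and the authors' deposited table gave -0.05 for the brighter probe. Against bur the call was lost without bur 1 (0.43), bur 2 (0.42), bur 4 (0.48) or any single laser array (0.39 to 0.51). The starts of both probes lie 5299 bases apart on the plus strand of chromosome 4, and their first 30 bases are shown because their readings differed.

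Tgfa brighter probe A_64_P122865, chr4:120432206-120432265 (rn4): tgccctggtggtagtctccattgtggccct

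Tgfa dimmer probe A_44_P310168, chr4:120437505-120437564 (rn4): attataaggaccctatgctgtttttagaac

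Egf itself was near the background limit outside the laser group. Control arrays read 2.79, 3.35, 1.99 and 2.32, laser arrays 4.0, 3.86, 4.47 and 3.53, and bur arrays 3.93, 0.86, 0.86 and 0.81. Only the laser arrays and bur 1 were above background, so the gene passed the filter through the group in which it was high. Bur 1 read within the range of the laser arrays, and the values of the other 3 bur arrays and of the controls give only a limit. Egf was higher in laser than in bur bone by 2.35 (SE 0.63, adjusted p = 0.0183), and by 1.14 with dim arrays raised to the background limit (adjusted p = 0.0466), a setting added after the values were seen. This call was lost without bur 2 (2.10), bur 4 (2.08) or laser 3 (2.18). All laser arrays lay above all controls, at least 2.5-fold on average, but the difference of 1.35 did not pass the test (SE 0.63, adjusted p = 0.116). With dim arrays raised to the limit it was 1.32 and passed (adjusted p = 0.0199). In that fit limits replace the readings of the other 3 bur arrays, so its spread is partly set by the limits. Its adjusted p-values for Egf are therefore no support for a difference. Bur and control differed by -1.0 (adjusted p = 0.274), and by 0.18 with dim arrays raised to the limit (adjusted p = 0.785), so no direction can be given for Egf in bur bone. The authors' deposited table gave 0.52 for laser against bur (adjusted p = 0.0637). All laser arrays lay on slide 2 and had higher processed signals, so slide and laser treatment cannot be told apart for Egf. The 3 genes closest to it over the 12 arrays were Or4x11c, Or1j14 and LOC108348192. Each was also above background on 4 laser and 0 control arrays, and on 0, 1 and 0 bur arrays. The part of the slide in this pattern was not tested.

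Epiregulin (Ereg) and betacellulin (Btc), ligands that bind both Egfr and Erbb4, were hardly measurable on these arrays. Ereg read 0.87 to 1.1 in control, 0.79 to 2.77 in bur and 0.73 to 1.36 in laser bone and was above background on 0 of 12 arrays. Btc read 0.58 to 0.91, 0.69 to 0.73 and 0.57 to 1.83 and was above background on 1 array, laser 3. Apart from laser 3 for Btc, only an upper limit can be given, and neither gene was tested.

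Erbb3 was the receptor that set bur apart from the other groups. Its kinase is impaired, it binds neuregulins, and it signals through its partners, most often Erbb2. The brighter probe read 5.84, 5.62, 4.98 and 4.81 on control arrays 1 to 4. It read 8.31, 8.42, 7.83 and 8.91 on the bur arrays and 5.59, 5.99, 4.84 and 6.50 on the laser arrays. All bur arrays lay above every other array, while laser and control overlapped. Erbb3 rose by 3.06 in bur against control (SE 0.36, adjusted p = 0.000381), or 8.31-fold (95% interval 4.79 to 14.4). It was lower in laser than in bur bone by a log2 difference of -2.64 (SE 0.36, adjusted p = 0.000453), which is 6.23-fold higher in bur. Laser and control differed by 0.42 (adjusted p = 0.401), with an interval from -0.38 to 1.21.

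The dimmer Erbb3 probe, placed 1585 bases away, gave the same order. It read 1.63, 2.95, 1.31 and 1.11 in control, where it was above background on 0 arrays, 5.31, 4.57, 4.08 and 5.22 in bur, where it was above background on 4, and 1.73, 2.96, 1.91 and 2.52 in laser bone, where 3 arrays were. Bur arrays again lay above all others. The signal was at least 5.09-fold higher in bur than in control bone (log2 difference 3.04, SE 0.43, adjusted p = 0.00108). For laser against bur the difference was -2.52 (adjusted p = 0.00143) and for laser against control 0.53 (adjusted p = 0.376). With the brighter probe, bur differed from control under all 20 alternatives, by 2.13 to 3.23, and laser from bur by -2.89 to -1.83, whereas laser against control was called under 0 of 20. The authors' deposited table gave 2.68 (adjusted p = 5.74e-05), -2.25 (adjusted p = 1.45e-05) and 0.43 (adjusted p = 0.102) for this probe, and 1.03, -0.80 and 0.24 for the dimmer probe. The first 30 bases of both probes are shown because the separation of the bur group rests on them.

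Erbb3 brighter probe A_42_P677337, chr7:1856510-1856569 (rn4, minus strand): ttgcagatacatactccttacaagccaatt

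Erbb3 dimmer probe A_64_P080643, chr7:1858095-1858154 (rn4, minus strand): aggcttttccccaaggctaatgcccagaga

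**Figure D3:**
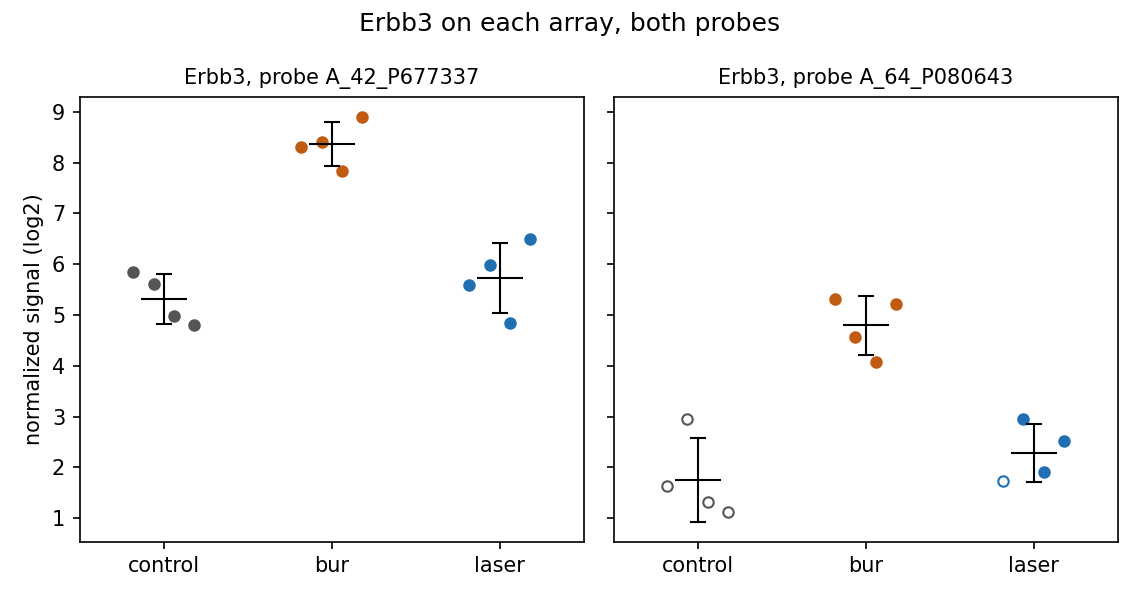
Normalized signal (log2) of both Erbb3 probes on each of the 12 arrays, by group. Filled points are above background and open points are not, the long bar is the mean and the whiskers are 1 SD (n = 4). The 4 bur arrays lie above all others with either probe, at 7.83 to 8.91 and at 4.08 to 5.31.

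Genes known from other cell types were read beside Erbb3. Of 10 monocyte and macrophage markers, 8 rose in bur bone, among them Cd14 by 2.79 and Msr1 by 3.37, with a median of 1.25. Their summed signal was 16.35 to 16.76 on bur arrays, above the 15.57 to 16.28 of the controls and the 15.45 to 16.01 of the laser arrays. In laser bone 4 of the 10 rose against control, and 5 were lower than in bur. In the fit lacking controls 1 and 4, 5 rose in bur and 2 in laser bone. All 10 were above background on every array, so that none of the defining markers was absent. The glial cells of peripheral nerve are known to carry Erbb3. Of 10 measured neural and glial genes, 0 rose and 2 fell in bur bone, among them Gfap, above background on 0 bur arrays, at least 1.46-fold. Leaving out controls 1 and 4, which were high in these genes, 0 rose and 1 fell, and the median moved from -1.77 to -0.47. The glial marker Sox10 differed there by -0.99 (adjusted p = 0.109). The summed neural signal was 8.00 to 10.67 on bur, 9.59 to 13.81 on control and 8.51 to 9.44 on laser arrays. Epithelia carry Erbb3 as well. Epcam was not above background on any array, Krt5, Krt14, Krt15, Krt8 and Krt18 were above background on 0 bur arrays, and of 9 epidermal and epithelial genes 0 rose and Cdh1 fell by 1.42 in bur bone. Their summed signal was 9.14 to 9.62 on bur and 9.58 to 10.23 on control arrays. The part of any of these cell types in the Erbb3 signal was not tested. The transcripts whose levels followed Erbb3 most closely over the 12 arrays were Folr2 (r = 0.988), Gchfr (r = 0.983) and Emp1 (r = 0.977). Folr2 encodes a folate receptor known from macrophages. They rose by 2.26, 1.91 and 1.65 in bur against control. These correlations describe 12 arrays in 3 groups and carry no test.

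Erbb2, which has no known ligand and is the preferred partner of the other receptors, rose in both wounds. It read 5.34, 5.96, 6.06 and 5.54 in control, 5.96, 6.41, 6.42 and 7.03 in bur and 6.37, 6.42, 6.46 and 6.24 in laser bone, above background throughout. The laser arrays lay above all controls, and bur 1 lay among the controls. Erbb2 rose by 0.73 in bur (SE 0.22, adjusted p = 0.0358), or 1.66-fold (interval 1.18 to 2.33), and by 0.65 in laser bone (SE 0.22, adjusted p = 0.0434), or 1.57-fold (1.12 to 2.20). Laser and bur differed by -0.08, with an interval from -0.57 to 0.41. The bur call was lost without bur 2 (0.75), bur 3 (0.74), bur 4 (0.54), control 1 (0.60) or control 4 (0.67), and the laser call without control 1 (0.52), control 4 (0.59) or any single laser array (0.62 to 0.69). Without controls 1 and 4 together the differences were 0.44 and 0.36, neither called. In the authors' deposited table both were 0.58 (adjusted p = 0.0168 and 0.0131).

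Egfr, the receptor of all 6 ligands, gave different calls by probe. Its brightest probe read 6.01, 6.32, 7.08 and 6.80 in control, 6.70, 7.08, 7.22 and 7.65 in bur and 6.71, 6.99, 7.20 and 6.61 in laser bone. The groups overlapped, and the differences from control were 0.61 for bur (SE 0.26, adjusted p = 0.114) and 0.33 for laser (SE 0.26, adjusted p = 0.361). Without control 3 the bur difference was 0.78 and was called, at an adjusted p of 0.0478 within a range of 0.0144 to 0.342 over the alternatives. The next probe, 5415 bases downstream, read 5.38, 5.82, 6.23 and 5.66 in control, 6.10, 6.78, 6.61 and 6.70 in bur and 6.72, 7.22, 6.93 and 6.43 in laser bone. On it all laser arrays lay above all controls, and Egfr rose by 1.05 in laser (SE 0.23, adjusted p = 0.00497) and by 0.78 in bur bone (SE 0.23, adjusted p = 0.0343), with p adjusted over all kept probes. A dim Egfr probe, above background on 6 of 12 arrays, gave 1.15 and 0.96 (adjusted p = 0.188 and 0.232). All 3 probes thus read higher on average in both wounds, and only the middle one passed. In the authors' deposited table, bur differed from control by 0.71 on the brightest probe (adjusted p = 0.00415) and laser by 0.36 (adjusted p = 0.0643).

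Egfr brightest probe A_44_P346408, chr14:97788051-97788110 (rn4, plus strand): tggtcttcgaactgtgaagattccactgaa

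Egfr next probe A_44_P1112991, chr14:97793466-97793525 (rn4, plus strand): ggtgctgtgtggaccaatgagctgtattcc

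Errfi1 (also called Mig6) binds the kinase domain of Egfr and blocks it, and its transcript is induced by the pathway. It read 9.08, 9.21, 9.59 and 8.91 in control, 9.38, 9.53, 10.33 and 9.89 in bur and 9.62, 9.93, 10.09 and 9.25 in laser bone. Control 3 lay within both treated groups. The differences from control were 0.59 in bur (SE 0.25, adjusted p = 0.108, interval 0.05 to 1.13) and 0.53 in laser (SE 0.25, adjusted p = 0.119, interval -0.01 to 1.07), neither past the threshold. With normexp background correction both passed, at 0.69 (adjusted p = 0.0249) and 0.70 (adjusted p = 0.0196), within ranges over the alternatives of 0.0249 to 0.444 and 0.0196 to 0.470. A dimmer probe gave 0.91 (adjusted p = 0.0578) and 0.27 (adjusted p = 0.533). The authors' deposited table gave 0.57 for Errfi1 in bur bone (adjusted p = 0.0159).

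Where groups did not overlap at all, Erbb3 was the only member for bur against control. For laser against control these were Areg, Egf and Erbb2, and for laser against bur Tgfa and Erbb3. The share of all genes whose groups did not overlap was 23.2%, 35.2% and 33.6%, beside 1, 3 and 2 of 8 members, which is near or below that share.

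Across the 12 arrays Egfr, Erbb2 and Errfi1 varied together: the correlation was 0.812 between Egfr and Erbb2, 0.758 between Erbb2 and Errfi1 and 0.724 between Egfr and Errfi1. Areg ran opposite to Erbb2, at -0.747. These values mix the spread within groups with the differences between them, come from the same 12 arrays and are given as description. Over all genes the closest to Areg were Cenpj, Atp6ap1l and Kif20b (r = 0.952, 0.952 and 0.948), to Erbb2 Lrrc3, Aen and Mb21d2 (0.956, 0.956 and 0.953) and to Egfr Tcf7l2, Tbrg1 and Eif3b (0.964, 0.961 and 0.959). The closest to Errfi1 were Cyp1b1, Angptl4 and Inhbb (0.943, 0.917 and 0.908), to Hbegf Trpm4, Sh3pxd2b and Irx2 (0.946, 0.93 and 0.926), to Tgfa LOC100909866, LOC102551647 and Rcbtb2 (0.968, 0.965 and 0.941) and to Egf Or4x11c, Or1j14 and LOC108348192 (0.958, 0.931 and 0.928).

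The promoters of the 3 genes that varied together and of Areg are shown because their transcripts moved jointly or in opposition. The RefSeq (GRCr8) promoter table used here was matched for 8 of the 10 members, all but Ereg and Erbb3. Each sequence is the 250 bases before the annotated start, written in the direction of transcription, with motif matches in capitals. Searched on both strands were the AP-1 motif TGANTCA, the cAMP response element TGACGTCA, the GC box GGGCGG, the TATA motif TATAAA and the CArG box, none of which overlap each other in these windows.

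Areg, chr14:17265642-17265891 (GRCr8, minus strand): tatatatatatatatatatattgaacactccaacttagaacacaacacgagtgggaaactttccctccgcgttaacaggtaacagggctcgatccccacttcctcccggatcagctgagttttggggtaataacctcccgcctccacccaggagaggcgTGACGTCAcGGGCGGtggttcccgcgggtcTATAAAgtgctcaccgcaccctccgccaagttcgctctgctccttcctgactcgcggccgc

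Egfr, chr14:95378376-95378625 (GRCr8, plus strand): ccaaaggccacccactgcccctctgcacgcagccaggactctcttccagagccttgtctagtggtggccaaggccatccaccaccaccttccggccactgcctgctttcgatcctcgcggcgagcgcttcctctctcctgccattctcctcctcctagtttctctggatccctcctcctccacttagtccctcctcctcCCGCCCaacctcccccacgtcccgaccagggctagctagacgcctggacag

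Erbb2, chr10:83907351-83907600 (GRCr8, plus strand): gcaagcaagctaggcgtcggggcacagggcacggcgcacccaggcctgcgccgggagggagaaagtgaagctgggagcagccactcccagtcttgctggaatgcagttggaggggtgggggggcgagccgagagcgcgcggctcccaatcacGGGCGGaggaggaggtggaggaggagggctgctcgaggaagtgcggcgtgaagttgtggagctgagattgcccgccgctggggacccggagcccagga

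Errfi1, chr5:166606591-166606840 (GRCr8, plus strand): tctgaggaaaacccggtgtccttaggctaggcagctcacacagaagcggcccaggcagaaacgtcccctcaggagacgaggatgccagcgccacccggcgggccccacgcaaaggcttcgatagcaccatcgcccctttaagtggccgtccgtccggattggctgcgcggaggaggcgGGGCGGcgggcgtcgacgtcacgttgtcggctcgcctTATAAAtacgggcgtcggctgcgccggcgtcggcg

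Egfr, Erbb2 and Errfi1 each held 1 GC box, at 51 to 46, 98 to 93 and 72 to 67 bases before the start, in Egfr on the opposite strand. Tgfa and Btc also held 1 GC box each, at 154 to 149 and 127 to 122 bases before the start, on the opposite strand. Hbegf and Egf held 0. The GC box was therefore not particular to the genes that varied together. A GC box was present in 30.467% of all 33469 RefSeq promoters. Errfi1 and Areg also held a TATA motif, at 35 to 30 and 61 to 56 bases, found in 12.931% of all promoters. Areg was the only one of the 8 with a cAMP response element, 91 to 84 bases before the start, next to a GC box at 82 to 77. This element occurred in 1.587% of promoters. The AP-1 motif (6.34% of promoters) and the CArG box (1.497%) had 0 matches among the 8 members. A match is a stretch of letters and not a measured binding site.

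**Figure D4:**
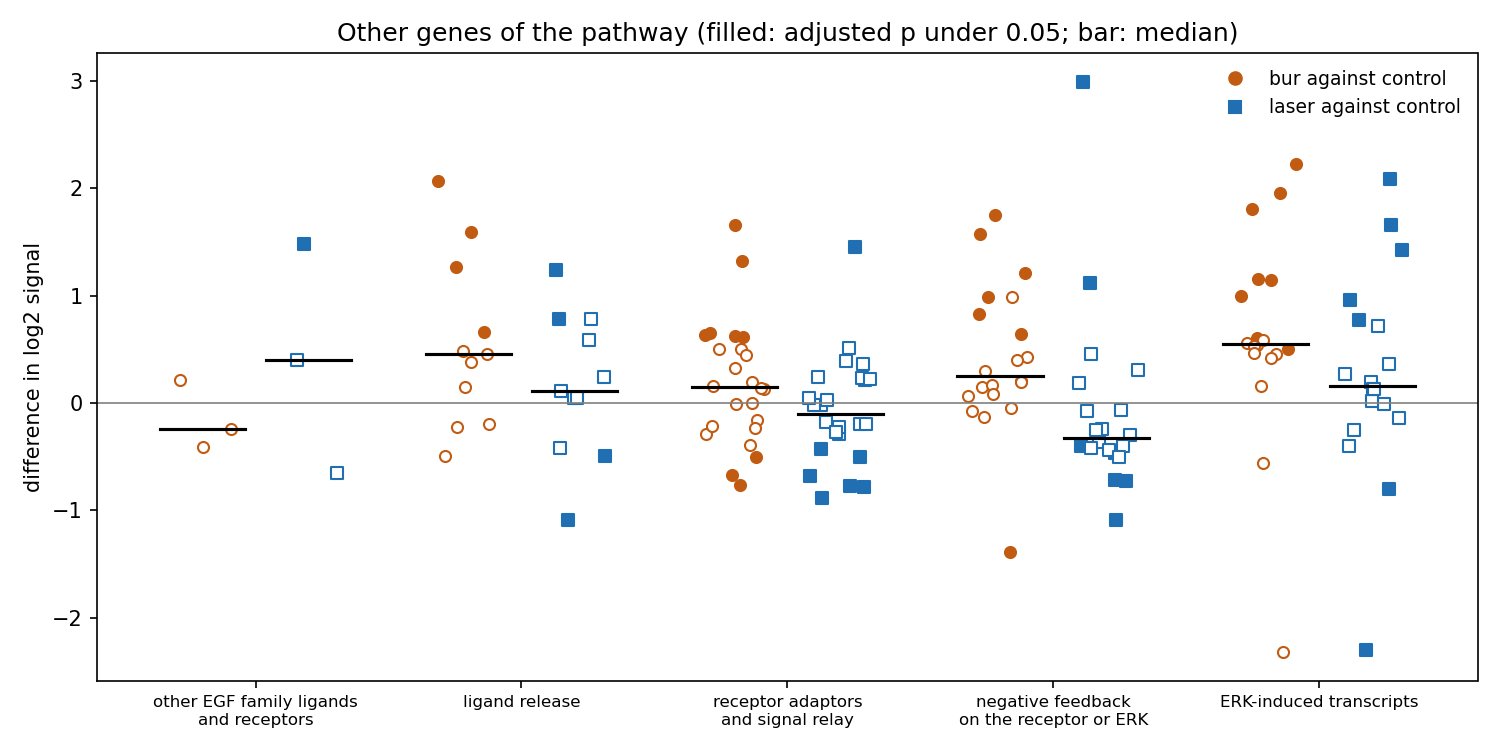
Difference in log2 signal of other genes of the pathway against control, for bur (circles) and laser (squares), by role. Each point is 1 gene, filled where it passed the test, and the bar is the list's median. Genes of negative feedback lie at a median of 0.25 for bur and -0.33 for laser, and ERK-induced transcripts at 0.55 and 0.16.

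Of the other EGF family genes, Nrg1, Nrg2 and Nrg4 could be tested, while Epgn and Erbb4 were too dim and Nrg3 was not on the array. Neuregulins are ligands of Erbb3 or Erbb4, and Nrg4 is known as a ligand of Erbb4 and not of Erbb3. In bur bone 0 of 3 changed: Nrg1 differed by -0.41, Nrg2 by -0.24 and Nrg4 by 0.21. In laser bone Nrg4 rose by 1.48 (SE 0.40, adjusted p = 0.0158), and it was higher than in bur by 1.27 (adjusted p = 0.0397), above background on 2 control, 1 bur and 4 laser arrays. Without controls 1 and 4, 0 of 3 were called against control.

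Of 11 genes of ligand release, 4 rose and 0 fell in bur bone. Adam17, the main protease that frees Tgfa, Areg and Hbegf, rose by 1.59 (SE 0.24, adjusted p = 0.00109). Adam8 rose by 2.06, Rhbdf2, a rhomboid-like partner that carries Adam17 to the surface, by 1.27, and Adam9 by 0.66. In laser bone 2 rose, Adam12 by 1.24 and Adam17 by 0.78. Adam10, the protease of Egf and Btc, fell by 1.09 (adjusted p = 0.00153), and Nrdc fell by 0.49, although its other kept probe differed by 0.03 (adjusted p = 0.909). On other probes Timp3, an inhibitor of Adam17, fell by 1.48 in laser bone and Rhbdl2 fell by 1.14 in bur and 0.93 in laser bone, where their main probes were not called (-0.42, 0.14 and 0.05). Against bur, laser bone was lower in Adam10 (-0.89), Adam17 (-0.81), Adam8 (-1.28) and Adam9 (-0.55) and higher in Adam12 (0.76). The list's median was 0.46, 0.11 and -0.33 for bur against control, laser against control and laser against bur. Without controls 1 and 4 the counts were 2 higher and 0 lower for bur, and 1 higher and 2 lower for laser, whose median was then -0.02, as it was with normexp background correction.

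Of 24 adaptors and signal relays, 6 rose and 3 fell in bur bone. Eps8, a substrate of the receptor, rose by 1.65, the docking proteins Gab1 and Gab2 by 0.65 and 1.32, and Nras by 0.61. Pik3r1 fell by 0.76 on a probe brighter than 2 others that gave -0.07 and -0.03, and Ptpn11, named after its values were seen, fell by 0.51, whereas its other probe differed by 0.0012 (adjusted p = 0.998). On another probe, not counted here, Hras rose by 1.0 in bur bone, where its main probe gave 0.50. In laser bone 1 rose and 6 fell. Mapk3, an ERK kinase, rose by 1.46 against control (SE 0.14, adjusted p = 3.34e-05) and by 1.75 against bur (adjusted p = 1.09e-05). Grb2, the adaptor that ties the receptor to Ras, fell by 0.79, while its other probe differed by 0.07 (adjusted p = 0.902). Pik3r1 fell by 0.88, where its other probes gave -0.86 and -0.31, not called. Hras rose by 1.37 and Src fell by 0.95 on other probes, against 0.21 and -0.27 on their main probes, not called. Against bur, 1 was higher and 9 were lower, among them Grb2 (-0.99), Eps8 (-1.67) and Gab1 (-0.67). Of all genes, 11.6% were higher and 14.2% lower in that comparison. The medians were 0.15, -0.10 and -0.21. In bur bone 4 rose and 1 fell without controls 1 and 4.

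Of 24 genes of negative feedback, 20 were measured, and 6 rose and 1 fell in bur bone. Spred3 rose by 1.58 (SE 0.19, adjusted p = 0.000445), Dusp6, the phosphatase of ERK that is a usual readout of this pathway, by 1.21 (SE 0.18, adjusted p = 0.00102) and Socs4 by 0.83. Lrig1, which promotes the degradation of the receptors, fell by 1.39 (SE 0.18, adjusted p = 0.000613). In laser bone 2 rose and 5 fell. Spry4, an inhibitor of the Ras pathway, rose by 2.99 (SE 0.46, adjusted p = 0.000692), or by 2.5 with dim arrays raised to the background limit, since it was above background on 2 of 4 control arrays. Spred1 rose by 1.12, with 2.32 and 0.42 on its other probes, the latter not called. Lrig1 fell by 1.09. Cblb, a ubiquitin ligase, fell by 0.72, whereas its other probe differed by 0.52 (adjusted p = 0.0668). Cbl, Ptpn1 and Ptprj fell by 0.41, 0.47 and 0.72 and were named after their values were seen. Each has another probe that did not pass, at -0.77 (adjusted p = 0.108), -0.09 (adjusted p = 0.750) and -0.55 (adjusted p = 0.0853). A further Cbl probe did pass, at -0.73 (adjusted p = 0.0147). Rnf41 rose by 1.03 on another probe, where its main probe gave -0.44, and in bur bone Cblb and Ptprj rose by 1.09 and 0.80 and Spry3 fell by 1.81 on other probes, where their main probes gave 0.43, 0.21 and 0.30. Those main probes were not called in these comparisons. Against bur, 0 were higher and 9 lower, among them Spred3 (-1.39), Dusp6 (-1.28), Socs4 (-0.91) and Cblb (-1.15, and -0.57 on its other probe, not called). Rnf41 was also among these, at -0.63, while its other probe gave 0.53, not called. Of all genes, 11.6% were higher and 14.2% lower in laser than in bur bone. The medians were 0.25, -0.33 and -0.62. Without controls 1 and 4, 4 rose and 1 fell in bur, and 2 rose and 3 fell in laser bone.

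Of 20 transcripts that ERK signalling is known to induce, 18 were measured, and 8 rose and 0 fell in bur bone. The transcription factors Maff and Fosl1 rose by 1.81 and 1.95, Ptgs2, the inducible enzyme of prostaglandin synthesis, by 2.23, and Ccnd1, which encodes cyclin D1, by 1.16. The early response factors Egr1 and Egr2 were not called on their main probes (0.16 and 0.46), but on other probes they rose by 0.65 (adjusted p = 0.00969) and 3.32 (adjusted p = 0.000960), and Mcl1 by 0.68. In laser bone 5 rose and 2 fell. Ccnd1 rose by 1.66 (SE 0.21, adjusted p = 0.000218), Ptgs2 by 1.43, Maff by 0.78 and Plaur, named after its values were seen, by 0.96, with 0.51 on its other probe (adjusted p = 0.153). Lif, above background on 0 control arrays, rose at least 2.82-fold. Egr2 differed by 0.72 on its main probe, not called, and rose by 1.86 on the other (adjusted p = 0.00926). Mcl1 fell by 0.80, against 0.36 on another probe, and Vgf, also named afterwards and above background on 1 laser array, fell by 2.30. Against bur, 1 was higher, Lif by at least 2.17-fold, and 6 were lower, among them Fosl1 (-1.69), Mcl1 (-1.34, and -0.32 on its other probe, not called), Maff (-1.03) and Klf10 (-1.01). The medians were 0.55, 0.16 and -0.39. Without controls 1 and 4, 5 rose in bur and 2 in laser bone and 0 fell in either. Many of these genes respond to other signals as well, and their counts are given beside the 13.7% and 9.74% of all genes called higher and lower in bur, and the 18.3% and 16.2% in laser bone. For laser against bur these shares were 11.6% and 14.2%.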

How the data were processed

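Per the labels' protocols, 200 ng of total RNA was labelled with Cy3 for single-colour arrays. The authors deposited scanner output with the intensity of every spot. Its processed signal had been corrected for background by Agilent Feature Extraction (version 11.0.1.1 in the submitters' processing notes). The authors' deposited tables hold log2 quantile-normalized values and limma-style log2 fold changes with p-values, per the file headers. Their background correction is not given in the sources used here, and their log2 differences for dim member probes were smaller than those computed here. Of 24920 entries of their expression table, 3840 had no row in the comparison tables and were not used.

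From the processed intensity, control and outlier spots were removed, values were taken to log2, quantile normalized and averaged per probe. Kept were 27196 of 45598 probes, above background on at least 4 of 12 arrays. A gene took its kept probe with the highest mean. All 17 probes of the members kept their symbol after a RefSeq (GRCr8) lookup, in which a probe without a RefSeq match keeps the array's own symbol. The brighter Erbb3 probe carries an Ensembl transcript identifier, so its symbol rests on the array's own annotation. All 12 arrays entered 1 limma 3.58.1 fit (R 4.3.3), with group as the only term, tested first on simulated data. Where no array of a group read a gene above background, the group gives only a limit, and the fold is given as at least the bright mean over the higher of that limit and its own signal. Such a fold compares means and leaves out the spread between samples, so it is not the low end of an interval. The number of arrays limits the precision. Alternatives were background correction, scaling, filter, probe choice, arrays in the fit, weights, a block and left-out arrays.

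The members and the gene lists were chosen with earlier results of these data known. Named are all members, up to 4 genes of a list with the smallest p in a comparison, those whose probes disagree, and the 3 genes closest to each member. Some genes that this rule names are counted in their lists but not reported here. The lists of neutrophil, basophil and mast cell, periosteal, erythroid, endothelial and muscle markers are given with the other observations. Summed signals of a list are log2 of the sum of linear signals. Probe positions are those of the array design in rn4, and exons are not given because no annotation of that build was used here.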

Additional observations from a re-analysis of the deposited data

Results flagged for a closer look

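Egf on array bur 1 read 3.93 where the other 3 bur arrays read 0.81 to 0.86. Its gap to the nearest of them was 0.984 of the whole range, above Dixon's limit for 4 samples. Those 3 arrays were not above background. With their values raised to the background limit, 2.19 to 2.75, the gap was 0.674 of the range, under Dixon's limit. As measured, it was the only such value among 24 groups of 4 checked (8 genes in 3 groups), where chance gives about 1 in 20.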

How the results depend on the processing

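Under all alternatives run, Erbb3 kept its calls for bur against control and laser against bur, and Areg for laser against control; each other call of a member was lost under at least 4. For bur against control, 4 members were called, but 2 with 75th percentile scaling, with only probes above background on all 12 arrays or without controls 1 and 4, and 1 with only the 2 groups compared. Both lie on slide 1, so the slide as a block gives no other value. Genes called fell from 3837 to 2476 with those 2 groups alone and to 2353 without controls 1 and 4. For laser against control, members called were 3, but 1 with 75th percentile scaling or without controls 1 and 4, and 5 with array weights. For laser against bur they were 3, but 1 in the authors' deposited values. With each probe on its own, calls were 8930 for laser against control and 7426 for laser against bur, since more features were tested. Leaving out 1 array gave 1 to 4, 1 to 4 and 1 to 3 members, and 2756 to 4110, 4202 to 5469 and 3005 to 3985 genes. Tgfa in laser against control turned to -0.11 as the mean of its probes and to -0.049 in the authors' deposited values. The cause of the other changes was not tested. With 75th percentile scaling the median of all genes moved by -0.155 for bur against control, and the share of calls that were higher from 58.4% to 42.3%. Samples of the same number deviated together in part only (correlations -0.105 to 0.35), which does not decide whether the numbers pair them. In every group the number is also the row of the array on its slide, so row and number cannot be told apart. With the replicate block, 3990, 5934 and 4406 genes and 4, 3 and 2 members were called, with Errfi1 gained in both comparisons with control (adjusted p = 0.0412 and 0.0444). Dim signals limit Hbegf, Egf, Ereg and Btc.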

Other observations

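Other marker lists moved with the groups. All 8 erythroid genes fell in bur bone and 7 of 8 in laser bone, and their summed signal was 17.41 to 17.62 in control, 15.81 to 16.72 in bur and 16.04 to 16.52 in laser bone. Of 10 periosteal and fibroblast genes, 4 rose in bur and 6 in laser bone, with summed signals of 14.12 to 15.09, 14.69 to 15.24 and 15.98 to 16.47. Of 9 neutrophil genes, 1 rose and 1 fell in bur and 3 rose in laser bone, at 15.84 to 16.32, 15.27 to 16.01 and 16.74 to 17.26. Of 9 basophil and mast cell genes, 2 fell in bur and 1 in laser bone, at 10.58 to 11.94, 10.27 to 11.51 and 10.56 to 11.39. Of 8 endothelial genes, 1 rose and 1 fell in bur and 2 rose and 1 fell in laser bone, at 12.18 to 12.86, 11.88 to 12.65 and 12.31 to 12.48. Of 5 skeletal muscle genes, 1 rose in bur and 2 in laser bone, at 5.78 to 7.98, 7.10 to 8.30 and 7.86 to 8.18. Of 10 osteoblast and osteocyte genes, 3 rose in bur and 5 in laser bone, but 0 and 2 without controls 1 and 4, and 1 in bur with 75th percentile scaling. Of 9 epidermal genes, 4 were higher (3 of them, Krt5, Krt14 and Krt15, above background on 0 control arrays) and 1 lower in laser than in control bone, with a summed signal of 8.88 to 9.39, and of 10 neural genes 1 rose and 3 fell. With controls 1 and 4 left out, 2 epidermal genes rose and 0 neural genes fell in laser bone, 2 periosteal genes rose in bur bone, and 0 neutrophil genes changed and 1 basophil or mast cell gene fell in bur bone. Endothelial genes then gave 1 rise and 0 falls in bur and 1 rise and 1 fall in laser bone. Their part in the values of the EGF receptor system was not tested.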
